A study of Homo sapiens with 9 samples.

Results

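The band 19p12 of human chromosome 19 holds one of the large clusters of KRAB zinc finger genes. The data below follow 32 genes of that cluster across human embryonic stem cells grown with or without 2 inhibitors of chromatin enzymes. The members are a fixed list of gene symbols, chosen with earlier results of these data known. Every probe set annotated to one of them alone was used. That gave 58 probe sets of the 54675 on the array, for 26 of the 32 genes. The other 6 genes, ZNF737, ZNF726, ZNF66, ZNF676, ZNF98 and ZNF714, had no probe set of their own by this rule. A probe set is a group of short probes that reads 1 transcript or a few related ones. Of the 26 genes, 10 had 1 probe set and 16 had several, up to 7 for ZNF91.

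KRAB zinc finger proteins bind DNA through tandem zinc fingers and recruit the co-repressor TRIM28 through the KRAB domain. TRIM28 brings in the histone methyltransferase SETDB1 and HP1 proteins, which set up silent chromatin with methylated histone H3 lysine 9. Many of these proteins bind transposable elements, and in human embryonic stem cells ZNF91 and ZNF93 are known as repressors of SVA and LINE-1 elements. The genes of such clusters arose by repeated duplication, so that neighbours resemble each other closely.

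The study measured total RNA of the embryonic stem cell line HSF-6 on 9 arrays of the Affymetrix human U133 Plus type, 3 arrays in each of 3 groups. HSF-6 (S9) cells with butyrate and DZNep, HSF-6 (8) cells with butyrate and DZNep, and untreated HSF-6 (8) cells were compared. All 3 groups went through 11 passages in the given medium and were grown for 6 days before collection. What separates the sublines (8) and (S9) is not stated in the labels. Butyrate inhibits histone deacetylases, and DZNep (3-deazaneplanocin A) inhibits S-adenosylhomocysteine hydrolase and lowers the Polycomb methyltransferase EZH2. There was no untreated HSF-6 (S9) group and no group with 1 compound alone, so the compounds cannot be told apart, nor can subline and treatment where treated HSF-6 (S9) is set against untreated HSF-6 (8). The labels do not say that the 3 arrays of a group came from separate cultures, so p-values measure only how these samples scattered, and that scatter may be technical.

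Values are MAS5 signal, an intensity on a linear scale, and array medians ran from 64.8 to 82.9. Differences are of log2(signal + 16), with standard errors and 95% intervals from limma across 54613 probe sets. A probe set was called at a Benjamini-Hochberg adjusted p under 0.05 and a change of at least 2-fold. The signals of different probe sets are not on a common scale, so no gene's level is set against another's, and sums over marker genes are set only against the same sum on other arrays. On the third array of each group the signal of 18S ribosomal RNA was 1517 in treated HSF-6 (S9), 850 in treated HSF-6 (8) and 963 in untreated HSF-6 (8), against 385 to 542 on the other 6 arrays. Of 10 markers of pluripotent cells, 9 were measured by single-gene probe sets, and all of these lay above the array's median on each of the 9 arrays.

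Summed signals of markers of other cell types were higher in treated cells in part of the lists. The summed signal of 8 endoderm markers was 1603 to 2103 in treated HSF-6 (S9) and 1477 to 8053 in treated HSF-6 (8), against 509 to 818 in untreated HSF-6 (8). APOA1 and FOXA2 lay below the array's median on all 3 untreated arrays, and no endoderm marker did so on the treated HSF-6 (8) arrays. The sum of the 6 measured trophoblast markers of 7 was 1626 to 2539 in treated HSF-6 (S9) and 1551 to 2330 in treated HSF-6 (8). In untreated HSF-6 (8) it was 637 to 996. CDX2 lay below the array's median on every array. GATA3 had 1 probe set called as higher in treated HSF-6 (8), with means of 743 against 153 in untreated HSF-6 (8). Its difference was 2.17 ± 0.24 with a limma adjusted p of 0.0115. In treated HSF-6 (S9) against untreated HSF-6 (8), 2 GATA3 probe sets were called, at adjusted p of 0.0127 and 0.0317. All 8 stromal markers summed to 12097 to 12989 in treated HSF-6 (S9) and 12149 to 20100 in treated HSF-6 (8), against 9403 to 9896 in untreated HSF-6 (8). LUM, a stromal marker, lay below the median on every array but the third of treated HSF-6 (8). The 7 measured neuroectoderm markers of 8 summed to 21823 to 32384 in treated HSF-6 (S9) and 21727 to 30091 in treated HSF-6 (8), against 21191 to 24404 in untreated HSF-6 (8), with overlap, and NEUROG1 lay below the median on every array. The part of such cells in the results below was not tested, and in bulk RNA fewer cells of a type and less RNA per cell cannot be told apart.

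The likeness of the cluster's genes shows in their promoters, and the windows below are shown because they set 2 genes that rose beside neighbours that were not called. Each is RefSeq sequence of build GRCh38.p14, from 250 bases before to 50 after the gene's start, read 5′ to 3′ on the gene's strand. The windows matched 26 of the 32 members, and ZNF682 had 2; ZNF253, ZNF506, ZNF738, ZNF676, ZNF98 and ZNF99 had none. ZNF682 (chr19:20039456-20039755, minus strand) and ZNF626 (chr19:20661522-20661821, minus strand) are the 2 called genes. ZNF486 (chr19:20166964-20167263, plus strand), ZNF93 (chr19:19900696-19900995, plus strand) and ZNF91 (chr19:23395422-23395721, minus strand) were not called. Capitals mark CCAAT and CTTTGTCTC, searched on both strands, and the marked copies share no base with each other.
ZNF682: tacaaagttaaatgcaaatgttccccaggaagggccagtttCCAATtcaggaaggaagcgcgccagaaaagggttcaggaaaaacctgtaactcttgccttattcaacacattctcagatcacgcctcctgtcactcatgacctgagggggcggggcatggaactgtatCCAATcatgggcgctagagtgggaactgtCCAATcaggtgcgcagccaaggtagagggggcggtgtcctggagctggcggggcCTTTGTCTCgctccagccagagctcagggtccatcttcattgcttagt
ZNF626: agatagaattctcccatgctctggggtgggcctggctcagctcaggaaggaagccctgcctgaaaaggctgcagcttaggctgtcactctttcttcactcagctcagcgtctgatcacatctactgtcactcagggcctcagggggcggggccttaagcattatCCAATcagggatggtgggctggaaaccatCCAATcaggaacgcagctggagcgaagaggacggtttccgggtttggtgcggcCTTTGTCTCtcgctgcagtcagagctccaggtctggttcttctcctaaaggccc
ZNF486: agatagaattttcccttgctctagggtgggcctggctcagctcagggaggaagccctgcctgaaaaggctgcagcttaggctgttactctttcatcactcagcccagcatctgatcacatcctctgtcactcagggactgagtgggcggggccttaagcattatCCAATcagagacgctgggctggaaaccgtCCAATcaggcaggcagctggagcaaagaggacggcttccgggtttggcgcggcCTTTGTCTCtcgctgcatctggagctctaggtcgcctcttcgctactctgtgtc
ZNF93: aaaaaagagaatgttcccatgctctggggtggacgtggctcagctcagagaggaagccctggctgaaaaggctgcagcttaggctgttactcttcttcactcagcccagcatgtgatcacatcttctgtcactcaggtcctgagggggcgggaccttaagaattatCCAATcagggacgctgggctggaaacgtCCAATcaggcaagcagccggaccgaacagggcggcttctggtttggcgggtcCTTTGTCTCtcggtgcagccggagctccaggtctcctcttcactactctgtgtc
ZNF91: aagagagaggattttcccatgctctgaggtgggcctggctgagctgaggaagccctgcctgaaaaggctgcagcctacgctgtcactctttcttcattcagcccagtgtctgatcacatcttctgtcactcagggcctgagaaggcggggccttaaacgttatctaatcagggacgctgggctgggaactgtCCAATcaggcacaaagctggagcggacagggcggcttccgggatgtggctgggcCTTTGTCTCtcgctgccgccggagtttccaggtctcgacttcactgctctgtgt
In ZNF626 and ZNF486, CCAAT began 86 and 57 bases before the start and CTTTGTCTC 4 bases before it. In the ZNF682 window printed here, CCAAT began 209, 81 and 52 bases before the start, and CTTTGTCTC began 3 bases after it. CCAAT was present in a window of all 26 members that had one, against 34.6% of all 35116 RefSeq windows of that length. CTTTGTCTC, a string picked after the sequences had been read, was in 19 of the 26 members, against 0.638% of all windows, with the copy that both ZNF682 windows hold counted once. GGGCGG was in 19 of the 26, against 45.0% of all windows, and TATAAA in 3, against 11.5%. The member windows held 8 to 18 CpG sites with a median of 10, against a median of 14 over all windows.

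The 2 called genes with a window were not each other's closest match. ZNF626 was closest to the uncalled ZNF486, with 90.4% identity over 293 aligned bases. ZNF486 had 1 probe set, 1553901_x_at, of a type that can match transcripts of other genes, above the array's median on only 2 arrays. Against untreated HSF-6 (8) its difference was 0.28 (95% interval -0.61 to 1.18) in treated HSF-6 (8). In treated HSF-6 (S9) it was 0.76 (-0.14 to 1.65). Both intervals include 0 and a 2-fold rise, so the missing call does not show that ZNF486 stayed unchanged. ZNF626 and ZNF682 were 73.3% identical over 285 aligned bases. Both marked strings stood in called and in uncalled genes. A match describes letters only and is no evidence of binding.

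The first comparison asks how butyrate with DZNep changed the cluster in HSF-6 (8). ZNF253, ZNF682 and ZNF626 had probe sets that lay below the array's median in untreated cells and rose in treated cells, while no member was called as lower. Together these 3 genes had 5 probe sets called as higher, 8.62% of the 58, and 0 called as lower. Over all 54613 probe sets, 0.0879% were called as higher and 0.00916% as lower. Because the members were chosen with earlier results of these data known, the contrast of these shares is no test of the cluster. Without adjustment limma gave p under 0.05 for 8 of the 58, or 13.8%, against 6.29% of all, and these 8 include the 5 called probe sets. The other 23 measured genes had no called probe set. Along the chromosome ZNF253, ZNF682 and ZNF626 are members 4, 6 and 10 of 32, with ZNF93 between ZNF253 and ZNF682, and with ZNF90, ZNF486 and ZNF737 between ZNF682 and ZNF626.

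**Figure D1:**
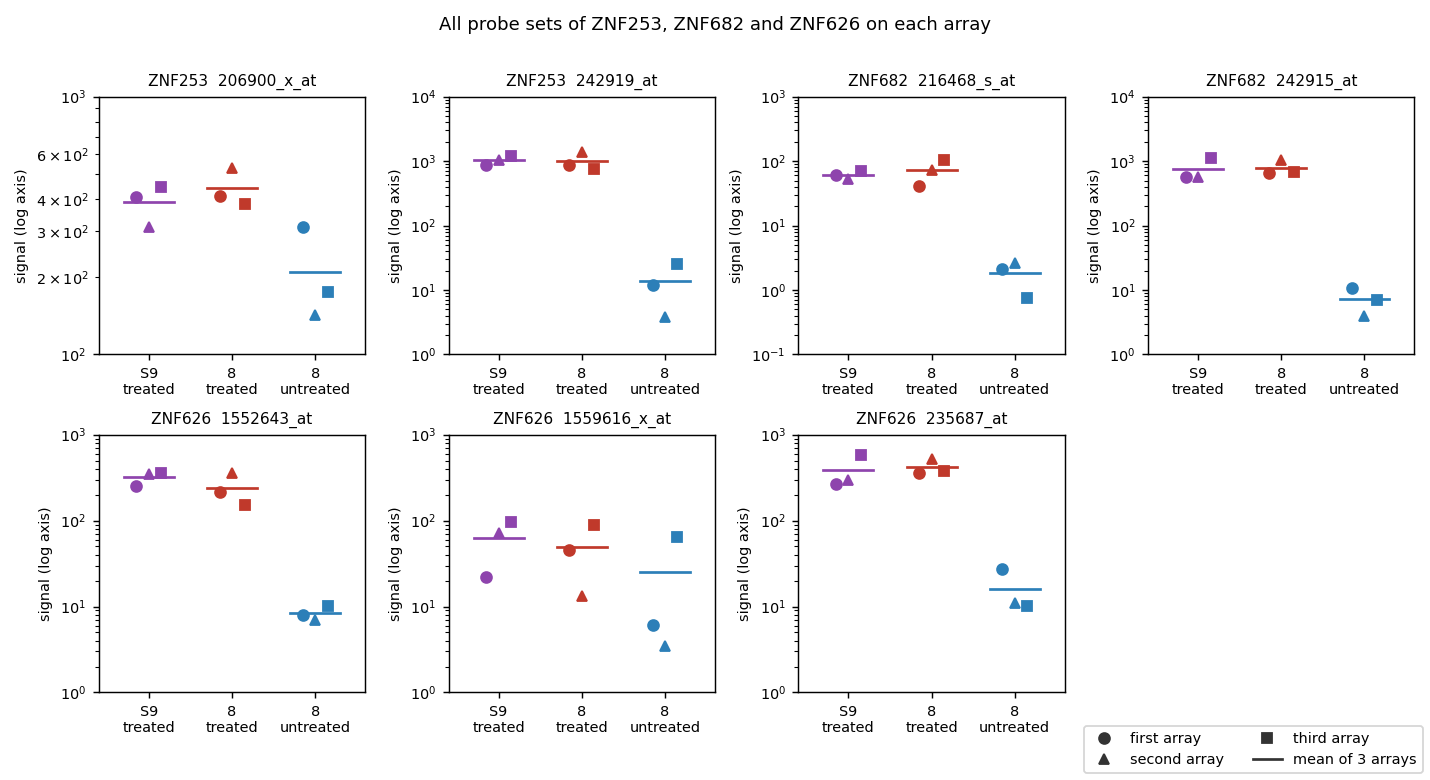
MAS5 signal (log axis) of the 7 probe sets of ZNF253, ZNF682 and ZNF626 on each of the 9 arrays, by group, with symbols for arrays 1, 2 and 3 and a bar for the mean of 3 arrays. In the 5 called probe sets every treated array lies above every untreated one, and in ZNF626 1559616_x_at the groups overlap.

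ZNF253 probe set 242919_at had signals of 876, 1396 and 761 in treated HSF-6 (8), against 11.9, 3.78 and 25.3 in untreated HSF-6 (8). Every treated array was far above every untreated one, and all 3 untreated values were below their array's median. The means were 1011 ± 338 in treated and 13.7 ± 10.9 in untreated cells (SD, n = 3 each). The log2 difference was 5.13 ± 0.33 (SE), with a 95% interval of 4.40 to 5.86 and a limma adjusted p of 0.000741. Because the untreated signal is so low, the size depends on the number added before the log: it was 6.38 with 1 added and 3.76 with 64 added, called with both. With only arrays 1 and 2 of each group the call was lost, at an adjusted p of 0.0620 and a difference of 5.58.

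The other ZNF253 probe set, 206900_x_at, had 411, 528 and 383 in treated HSF-6 (8), against 311, 143 and 175 in untreated HSF-6 (8). Treated and untreated arrays did not overlap here either, but the untreated values were all above their array's median. The difference was 1.07 ± 0.30, with an adjusted p of 0.431, and was not called. The suffix x_at marks probes that can match transcripts of other genes, so the share of ZNF253 in this signal is unknown. The 2 probe sets of 1 gene therefore gave different calls, and the positions of their probes were not used here.

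ZNF682 probe set 242915_at had 661, 1025 and 666 in treated HSF-6 (8), against 10.9, 3.99 and 7.12 in untreated HSF-6 (8). The groups were again far apart, with means of 784 ± 209 in treated and 7.35 ± 3.48 in untreated cells (SD, n = 3 each). The log2 difference was 5.08 ± 0.32 (95% interval 4.37 to 5.79, adjusted p 0.000741), or 6.61 with 1 and 3.54 with 64 added. With only arrays 1 and 2 of each group its adjusted p was 0.0620 as well.

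The second ZNF682 probe set, 216468_s_at, had 40.6, 73.8 and 106 in treated HSF-6 (8), against 2.13, 2.61 and 0.764 in untreated HSF-6 (8). All 3 untreated values were far below the array's median, and of the treated ones the lowest lay below it and the other 2 above. Its difference was 2.26 ± 0.28, with an adjusted p of 0.0229, and its size was 4.67 with 1 and 1.03 with 64 added. This call was not robust. With the replicate mark as a block the adjusted p was 0.0516, with 64 added it was 0.111, with only the 2 groups compared in the model it was 0.127, and with only arrays 1 and 2 of each group it was 0.281. The call was also lost when any of the 3 untreated arrays was left out, when array 2 or 3 of treated HSF-6 (8) was, or when array 1 or 2 of treated HSF-6 (S9) was, with adjusted p up to 0.143.

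ZNF626 had 2 called probe sets. Probe set 235687_at had 359, 520 and 378 in treated HSF-6 (8), against 27.0, 11.1 and 10.2 in untreated HSF-6 (8), and the groups were well separated. Its difference was 3.78 ± 0.34 (95% interval 3.03 to 4.54, adjusted p 0.00324), or 4.73 with 1 and 2.58 with 64 added. Probe set 1552643_at had 216, 356 and 152 in treated HSF-6 (8), against 7.88, 6.98 and 10.2 in untreated HSF-6 (8). Its untreated arrays lay within a narrow band below every treated one. Its difference was 3.32 ± 0.30 (adjusted p 0.00331), or 4.62 with 1 and 2.02 with 64 added. With only arrays 1 and 2 of each group both ZNF626 calls were lost, at an adjusted p of 0.107.

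The third ZNF626 probe set, 1559616_x_at, had 45.7, 13.3 and 88.1 in treated HSF-6 (8), against 6.07, 3.47 and 65.2 in untreated HSF-6 (8). The groups overlapped, since the third untreated array was higher than 2 treated ones. Its difference of 0.81 ± 0.65 had an adjusted p of 0.987 and a 95% interval of -0.66 to 2.28. That interval neither reaches the differences of the other 2 probe sets nor leaves out 0.

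**Figure D2:**
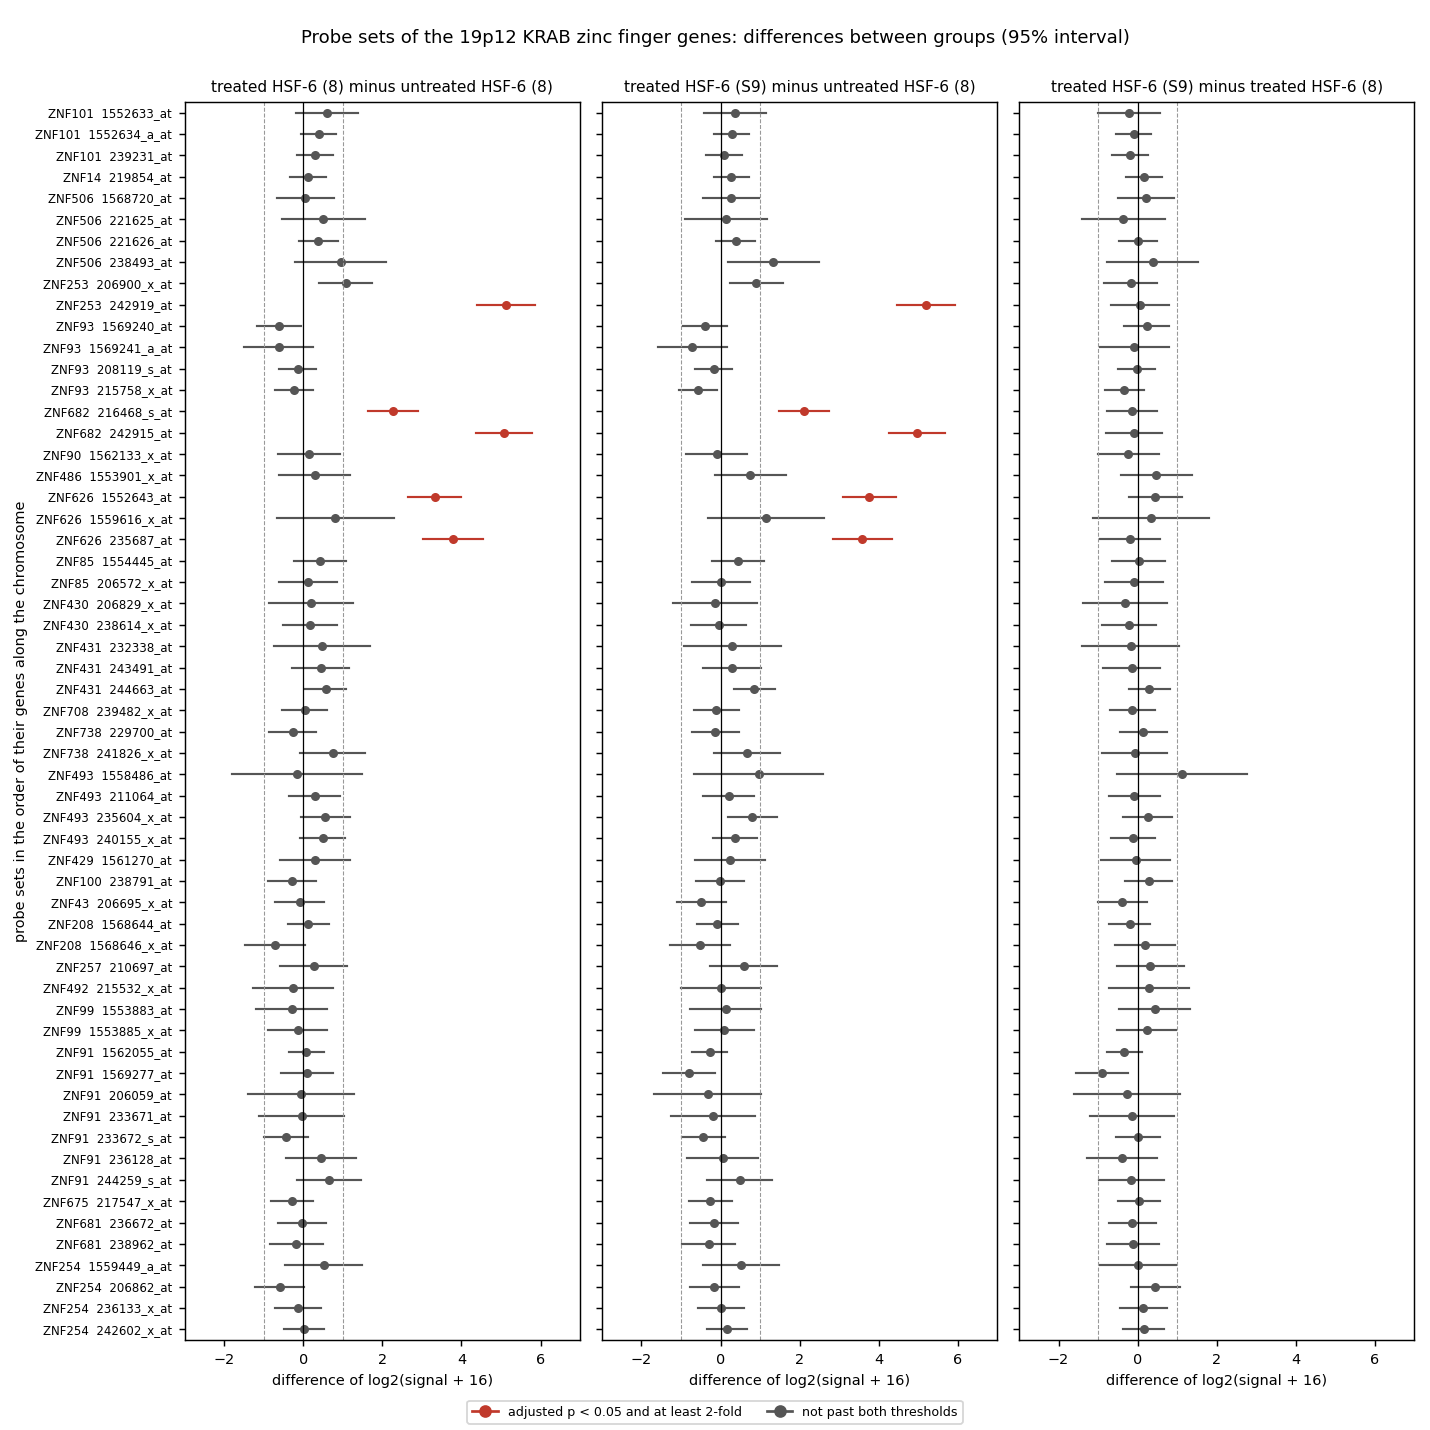
Difference of log2(signal + 16) with its 95% interval for all 58 member probe sets, in the order of their genes along the chromosome, for the 3 pairs of groups. The 5 called probe sets in each comparison with untreated HSF-6 (8), in red, belong to ZNF253, ZNF682 and ZNF626, and no probe set is called between the treated sublines.

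None of the other 53 member probe sets was called. Their differences between treated and untreated HSF-6 (8) ran from -0.72 to 1.07 with a median of 0.12, and the smallest adjusted p was 0.431. Of these, 33 were positive and 20 negative. The 95% interval lay within 2-fold either way for 25 of the 58, or 43.1%, against 51.8% of all probe sets. The intervals of the other uncalled ones reached past a 2-fold change in at least 1 direction. Over all 58 the median was 0.15, against 0.02 over all probe sets tested.

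Counted by whether the groups overlapped, 9 of the 58 probe sets had every treated HSF-6 (8) array above every untreated one. That is 15.5%, against 7.34% of all probe sets, and the 5 called probe sets are among the 9. The others were in ZNF101, ZNF253, ZNF493 and ZNF91. In 3 of the 58, or 5.17%, every treated array lay below every untreated one, against 5.30% of all. These 3 were in ZNF93, ZNF208 and ZNF254, and none passed the test.

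ZNF93, a repressor of LINE-1 elements in human embryonic stem cells, was represented by 4 probe sets. Its probe set 208119_s_at had 1871, 2068 and 1515 in treated HSF-6 (8), against 2239, 2017 and 1772 in untreated HSF-6 (8), with overlapping groups and a difference of -0.15 ± 0.21. Probe set 1569241_a_at had 326, 362 and 162 in treated HSF-6 (8), against 500, 556 and 269 in untreated HSF-6 (8), and here too the groups overlapped. Its difference was -0.62 ± 0.39, with an adjusted p of 0.949. In probe set 1569240_at the groups did not overlap, with 48.0, 46.5 and 42.1 in treated HSF-6 (8), against 98.9, 94.4 and 50.1 in untreated HSF-6 (8). That difference was -0.62 ± 0.25, with a limma adjusted p of 0.729. All 4 ZNF93 probe sets had negative differences, from -0.62 to -0.15, and none was called. In all 4 the third array was the lowest of each group.

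ZNF91, a repressor of SVA elements, had 7 probe sets with differences from -0.44 to 0.64 and no call. Its probe set 244259_s_at had 60.9, 53.6 and 164 in treated HSF-6 (8), against 39.3, 62.0 and 42.5 in untreated HSF-6 (8). The third treated array stood well above the others, and the groups overlapped. The difference was 0.64 ± 0.36, with an adjusted p of 0.912.

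Among the members whose function is less well known, ZNF506 had the largest difference outside the called genes. Its probe set 238493_at had 4.17, 79.7 and 16.2 in treated HSF-6 (8), against 9.65, 1.64 and 3.12 in untreated HSF-6 (8). A single treated array held most of that difference, which was 0.95 ± 0.51 with an adjusted p of 0.894. In treated HSF-6 (S9) this probe set had 24.4, 60.4 and 28.7, all above the untreated values. That difference was 1.33 ± 0.51 with an adjusted p of 0.512, and was not called. Only 1 of the 9 arrays had it above the array's median. ZNF738 probe set 241826_x_at had 424, 632 and 561 in treated HSF-6 (8), against 224, 268 and 499 in untreated HSF-6 (8). The third untreated array fell among the treated ones, and the difference was 0.74 ± 0.37 with an adjusted p of 0.850.

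The largest differences downward were in ZNF208, ZNF93 (above) and ZNF254. ZNF208 probe set 1568646_x_at had 1.41, 3.88 and 0.568 in treated HSF-6 (8), against 30.8, 11.1 and 3.98 in untreated HSF-6 (8). All of these lay below the array's median, and the difference was -0.72 ± 0.34 with an adjusted p of 0.832. ZNF254 probe set 206862_at had 152, 166 and 167 in treated HSF-6 (8), against 269, 304 and 198 in untreated HSF-6 (8). The groups did not overlap, and the difference was -0.60 ± 0.28 with an adjusted p of 0.816.

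ZNF738 and ZNF101 are described next by the rule on untreated signal, which also named ZNF93 and says nothing of how their transcript levels compare. ZNF738 probe set 229700_at had 6859, 6469 and 4123 in treated HSF-6 (8), against 6619, 7358 and 6635 in untreated HSF-6 (8), a difference of -0.27 ± 0.26. ZNF101 probe set 239231_at had 2220, 2012 and 2412 in treated HSF-6 (8), against 1696, 1696 and 2040 in untreated HSF-6 (8), a difference of 0.29 ± 0.20. The groups overlapped in both.

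**Figure D3:**
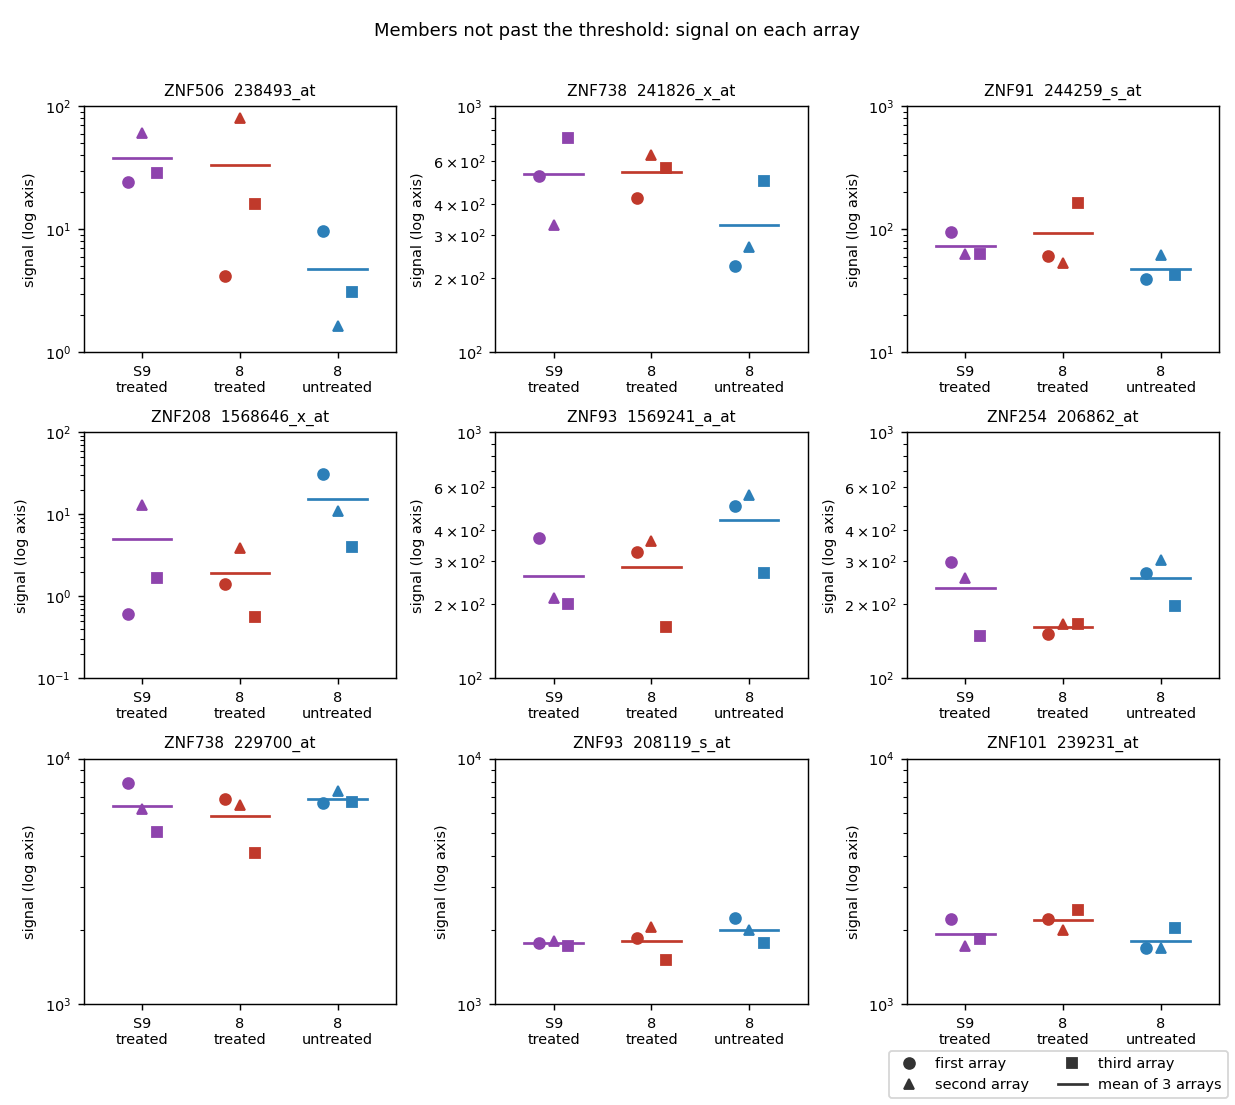
MAS5 signal (log axis, with its own range in each panel) of 9 probe sets of uncalled members on each of the 9 arrays, by group, with symbols for arrays 1, 2 and 3 and a bar for the mean of 3 arrays. Differences between treated and untreated HSF-6 (8) run from -0.72 for ZNF208 to 0.95 for ZNF506, and in ZNF93 the third array is the lowest of each group.

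The second question is whether the treated sublines differed. Between treated HSF-6 (S9) and treated HSF-6 (8), 0 of the 58 member probe sets were called by limma in either direction, where 0% of all probe sets were. An unadjusted p under 0.05 was reached by 1 member probe set, 1.72%, against 3.67% of all. That one was ZNF91 probe set 1569277_at, named for this after its values were seen. It had 21.4, 1.90 and 22.4 in treated HSF-6 (S9), against 38.7, 38.6 and 39.5 in treated HSF-6 (8). All 6 values were below the array's median, and the difference was -0.90 ± 0.29 with an unadjusted p of 0.013.

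In both treated sublines the called probe sets of ZNF253, ZNF682 and ZNF626 lay above every untreated array. ZNF253 242919_at had 866, 1028 and 1204 in treated HSF-6 (S9), within the range of treated HSF-6 (8), and the difference between sublines was 0.07 (95% interval -0.67 to 0.80). ZNF682 242915_at had 575, 557 and 1130 in treated HSF-6 (S9), with a difference of -0.10 (-0.81 to 0.61). For ZNF626 235687_at the values were 267, 297 and 584 in treated HSF-6 (S9), and the difference was -0.19 (-0.95 to 0.56). These 3 intervals left out a 2-fold difference between sublines.

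The interval of ZNF626 1552643_at reached past 2-fold upward. It had 250, 347 and 360 in treated HSF-6 (S9), and its difference from treated HSF-6 (8) was 0.44 (-0.23 to 1.11). ZNF682 216468_s_at had 60.3, 53.3 and 70.9 in treated HSF-6 (S9), with a difference of -0.14 (-0.77 to 0.49). Each of these HSF-6 (S9) values lay below its array's median. Of all 58 probe sets, 39 had an interval within 2-fold either way, which is 67.2%, against 53.5% of all probe sets.

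Groups that did not overlap were counted here too. Every HSF-6 (S9) array lay above every HSF-6 (8) array in 2 of the 58 probe sets, 3.45%, against 2.89% of all. Every HSF-6 (S9) array lay below in another 2, 3.45%, against 5.04% of all. The median difference was -0.08, against -0.04 over all probe sets.

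The third comparison set treated HSF-6 (S9) against the same 3 untreated HSF-6 (8) arrays as the first, so that the 2 comparisons are not independent. In it 5 member probe sets were called as higher, 8.62%, and 0 as lower, where 0.0970% of all probe sets were called as higher and 0.0110% as lower. The choice of the members limits these shares as in the first comparison. The ZNF253 probe set 242919_at had a difference of 5.20 ± 0.33 (adjusted p 0.000584), beside 5.13 in HSF-6 (8). ZNF682 242915_at had 4.98 ± 0.32 (adjusted p 0.000584), beside 5.08. ZNF626 had 3.77 ± 0.30 (adjusted p 0.00162) for 1552643_at, beside 3.32, and 3.59 ± 0.34 (adjusted p 0.00452) for 235687_at, beside 3.78. With only arrays 1 and 2 of each group all 5 of these calls were lost too, with adjusted p from 0.0615 to 0.305.

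The second ZNF682 probe set, 216468_s_at, had a difference of 2.11 ± 0.28 (adjusted p 0.0300), beside 2.26 in HSF-6 (8). Here too the call was lost with 64 added, at an adjusted p of 0.109. It was lost as well when any untreated array, any HSF-6 (S9) array or array 2 of treated HSF-6 (8) was left out, with adjusted p up to 0.147. Over the 58 probe sets the median difference was 0.13, against -0.02 over all. Every HSF-6 (S9) array lay above every untreated array in 13 probe sets, 22.4%, against 6.84% of all, and below in 3, 5.17%, against 7.21%. The 5 called probe sets are among the 13.

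Differences between arrays of a group also had a shared part in some members. In 8 of the 58 probe sets, 13.8%, the third array was the highest of each of the 3 groups, against 11.8% of all probe sets. In 4, 6.90%, it was the lowest of each group, against 9.20%, and these were the 4 probe sets of ZNF93. The third arrays are also those with the higher 18S signal, and its part in these values was not tested. With the third arrays as a batch term, ZNF253 242919_at kept an adjusted p of 0.00246 and the first comparison kept its count of 5. In 5 of the 7 probe sets of ZNF253, ZNF682 and ZNF626 the 2 highest of the 6 treated arrays were the third of HSF-6 (S9) and the second of HSF-6 (8). How often that order occurs over all probe sets was not counted, so it cannot be called particular to these genes.

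Suffixes for probes that may match several transcripts were frequent among the members, and which genes they match was not examined. Of the 58 probe sets, 19 carried the suffix x_at, 32.8%, against 7.70% of all tested probe sets. A further 4 carried s_at, for probes common to several transcripts. Of the 5 called probe sets, 1 carried either suffix, ZNF682 216468_s_at. In 2 further probe sets annotated to several genes a member was among them, and neither was called, with differences of -0.36 and -0.21 in the first comparison.

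Detection calls were not used here, and signal was set against the array's median. Above it on at least 3 of the 9 arrays lay 38 of the 58, in 19 genes. On all 9 arrays it was 27, and on none it was 15. In 5 the condition was met through treated arrays alone, so that those 5 would not have passed a filter on untreated signal.

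Genes for the proteins that act with KRAB zinc finger proteins were examined next. Of 25 KRAB partners and silencing genes, 23 were measured by 59 probe sets, and 0 were called by limma in any of the 3 comparisons. Over all probe sets 0.0970% were called in the first comparison. An unadjusted p under 0.05 was reached by 2 of the 59 in the first comparison, 3.39%, against 6.29% of all probe sets. Their median difference between treated and untreated HSF-6 (8) was -0.004. UHRF1, which directs the maintenance DNA methyltransferase to replicated DNA, had the largest difference upward, with 4867 ± 2089 in treated HSF-6 (8) against 1850 ± 719 in untreated HSF-6 (8) (SD, n = 3 each), or 1.37 ± 0.36 with an adjusted p of 0.384. EHMT1, a histone H3 lysine 9 methyltransferase, had 28.6 ± 27.6 in treated against 69.8 ± 21.3 in untreated cells, or -1.08 ± 0.49 with an adjusted p of 0.807.

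The other genes that RefSeq places between the first and the last member had 0 calls as well. They number 160, of which 13 were measured by 23 probe sets, with a median of 0.20, and 2 of the 23, or 8.7%, reached an unadjusted p under 0.05 with limma, against 6.29% of all probe sets. The non-coding RNA gene LINC00664 had the largest difference upward, 1.19 ± 0.43, and LINC01859 the largest downward, -0.56 ± 0.46. Their mean signals were 48.7 in treated against 11.7 in untreated HSF-6 (8), and 10.8 against 23.3, all below the array medians.

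Zinc finger genes elsewhere had 1 called probe set in each of 2 lists. Of 384 probe sets of 204 other zinc finger genes on chromosome 19, 1 was called in the first comparison, 0.26%, and of 601 probe sets of 273 zinc finger genes on other chromosomes 1 was called, 0.166%. Over all probe sets 0.0970% were called in either direction. The called probe sets were of ZNF677 on chromosome 19 and of ZNF662. ZNF677 had 302, 703 and 264 in treated HSF-6 (8), against 26.8, 31.3 and 15.0 in untreated HSF-6 (8), a difference of 3.33 ± 0.40 with an adjusted p of 0.0179. The call was lost with only the 2 groups in the model, at 0.0845, and when any of the 3 untreated arrays or array 1 or 3 of treated HSF-6 (8) was left out, with adjusted p up to 0.0993, and with only arrays 1 and 2 of each group it was 0.280. ZNF662 had 146, 354 and 140 in treated HSF-6 (8), against 2.17, 4.34 and 7.37 in untreated HSF-6 (8), a difference of 3.36 ± 0.44 with an adjusted p of 0.0350. Its call was lost with 64 added (0.165), with quantile normalization (0.0588), with a batch term for array 3 of each group (0.0580) and with only the 2 groups (0.0737). It was also lost when any untreated array, any treated HSF-6 (8) array or array 3 of treated HSF-6 (S9) was left out, with adjusted p up to 0.150, and with only arrays 1 and 2 of each group (0.323). In both genes the groups were far apart, and the treated values spread more widely than the untreated ones. The medians of the 2 lists were 0.07 and 0.06, against 0.02 over all probe sets. An unadjusted limma p under 0.05 was reached by 8.07% and 6.49% of their probe sets, against 6.29% of all.

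**Figure D4:**
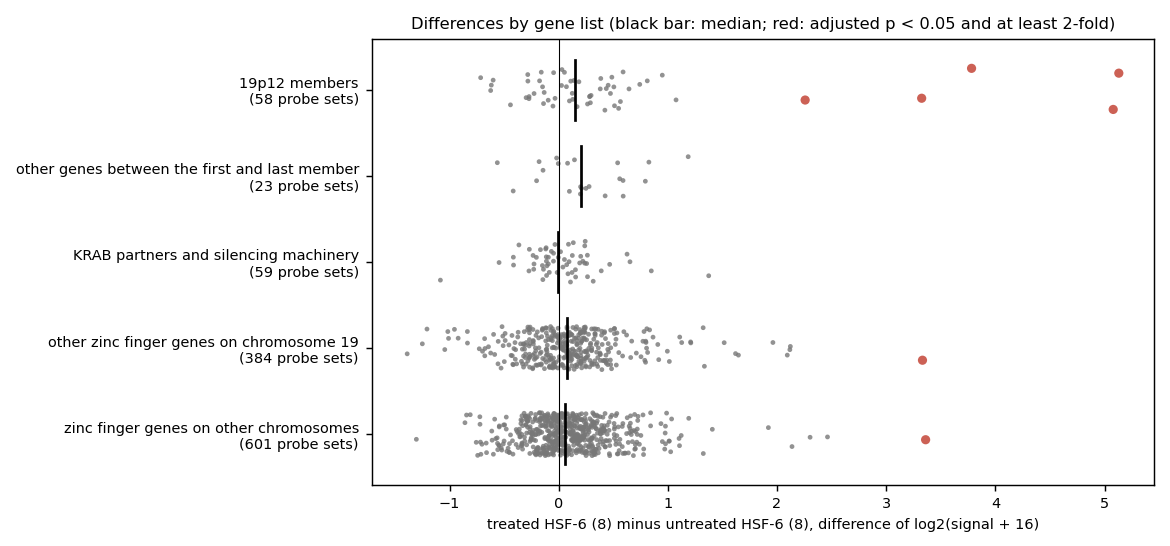
Difference of log2(signal + 16) between treated and untreated HSF-6 (8) for each probe set (points) of the 19p12 members and of 4 other gene lists, with the list's median as a bar and called probe sets in red. The members hold 5 called probe sets, each of the 2 other zinc finger lists holds 1, and the list medians lie between -0.004 and 0.20.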

How the data were processed

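The data are signal intensities per probe set from 9 arrays. The authors made the deposited intensity values with Affymetrix Expression Console and MAS5, per the submitters' processing notes, which name no version. The table holds no detection calls. All 54675 probe sets were read, and the 62 controls were left out. GEO's platform annotation named the genes, updated to current symbols by Entrez number, with 41091 probe sets of a single gene, 1801 of several and 11721 of none.

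After 16 was added and log2 taken, all 9 arrays entered 1 model per probe set (lmFit and eBayes of limma 3.58.1, R 4.3.3, with neither a trend nor a filter), with two-sided p-values adjusted by Benjamini-Hochberg over 54613 probe sets in each comparison. The number of arrays limits the precision. The calling steps were tested on simulated data. Members and lists were chosen with earlier results of these data known. Named were members with a called probe set, the 3 largest rises and falls among the others in treated against untreated HSF-6 (8), and the 3 with the highest untreated signal. From each gene list, markers aside, the called genes or the largest change each way in treated against untreated HSF-6 (8) were named. A marker's signal was that of its probe set with the highest mean. Promoter windows were aligned in pairs.

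The prime marks of the titles number the arrays. Between treated and untreated HSF-6 (8), arrays of the same mark correlated after removal of group means (r 0.149, 0.111 and 0.397). So did those of the treated sublines (0.139, 0.114 and 0.257), all above 0.1. The main model held the group alone, so its tests were not paired, and a replicate block was among the alternatives. Arrays of marks 1 and 2 correlated across marks as well (0.187 and 0.147 between treated and untreated HSF-6 (8)), so that mark 3 alone stood apart in that pair of groups. Between treated HSF-6 (S9) and untreated HSF-6 (8) the values for arrays of the same mark were 0.052, 0.085 and 0.360. Alternatives were another added number, a filter on low values, 1 probe set a gene, quantile normalization, a replicate block, a batch term, an intensity trend, fewer groups and fewer arrays.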

Additional observations from a re-analysis of the deposited data

How the results depend on the processing

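The count of called member probe sets was 4 or 5 in the first and the third comparison with 1 or 64 added, quantile normalization, the third arrays as a batch term, an intensity trend and only the groups compared. Leaving out 1 array at a time gave 4 to 5 in both, and 0 to 0 between the treated sublines. With the replicate block it was 4 in both, since ZNF682 216468_s_at was lost (adjusted p 0.0516 and 0.0703), and the block changed no other call of a named probe set. With 1 probe set a gene, 3 members were called in both, 1 for each of ZNF253, ZNF682 and ZNF626, because fewer probe sets were tested. The 13506 probe sets of that setting were taken from those that passed the filter on low values. ZNF253 242919_at, ZNF682 242915_at and ZNF626 235687_at, which stood for these genes, passed it through treated arrays alone. This count is therefore no separate support for the calls. With only the first and second arrays 0 were called in both, and limma then gave adjusted p of 0.0620 for ZNF253 242919_at and ZNF682 242915_at and 0.107 for both called ZNF626 probe sets in HSF-6 (8), at differences of 5.58, 5.18, 3.72 and 3.65. That setting has fewer arrays. The filter on low values gave 4 in both, but it kept 5 member probe sets through treated arrays alone, so neither this count nor the median under it supports the calls. No called difference changed sign; differences between the sublines, none of them called, did so in part. Over all probe sets the calls numbered 53 in the first comparison and 59 in the third, 25 and 28 with only the groups compared, 88 and 114 with the filter, 115 and 160 with 1 probe set a gene, 1 and 1 with only the first and second arrays, and 104 in the third with an intensity trend; leaving out 1 array gave 22 to 46 and 22 to 53. The median over the members in the first comparison was 0.29 with the filter, against 0.15 without it, and between the sublines 0.06 without the second treated HSF-6 (S9) array, against -0.08. Untreated signals of the 5 called probe sets were below the array's median, and the size of their rise depends on the number added.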
